A study of Arabidopsis thaliana with 24 samples.

Results

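The clusters described here are CAGE start site clusters in the repeats of the nuclear 45S rRNA gene of Arabidopsis thaliana, which yields the 18S, 5.8S and 25S rRNAs of the ribosome. They were chosen by position: every cluster, on either strand, whose peak lay within 5000 bp of the annotated nuclear rRNA genes, that is on chromosome 3 from 14192677 to 14204916 or on chromosome 2 from 1 to 10945. This gave 405 of the 317183 clusters in the deposited table, and they held 103692485 of its 217232656 tags. A tag is 1 sequenced cDNA end, assigned to the first base of the RNA it was copied from, and a cluster is a run of such bases with at least 5 tags.

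CAGE oxidises and biotinylates the cap of RNA molecules, so that capped ends can be selected before sequencing. The cDNA was primed at random, so RNA without a poly(A) tail was copied too. The labels describe 24 libraries from aerial parts of wild-type plants of 4 accessions grown for 2 weeks, each with 3 replicates after 24 h at 4 °C under 140 µE of light and 3 control replicates at 22 °C under 40 µE of continuous light. The deposited table holds 4 sets of clusters, matched to the accessions by the initial of their identifiers: 106 of the clusters belong to Altenb-2, 96 to Kly-1, 102 to Shigu-2 and 101 to Vash-1, the order used for all lists of 4 values. It names no library, treatment or replicate, so that each accession has 1 pooled value per cluster, treated and control plants cannot be told apart, and nor can accession and the mix of treatments behind a set. Intervals below are exact 95% binomial (Clopper-Pearson) intervals, which cover counting error only, and no p-value was computed.

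As background, RNA polymerase I copies each repeat into a single long precursor, in the order external spacer, 18S, internal spacer 1 (ITS1), 5.8S, internal spacer 2 (ITS2), 25S and a trailing external spacer, and nucleases then cut the mature rRNAs out of it. Many near-identical repeats lie at the nucleolar organisers of chromosomes 2 and 4, which a reference genome does not hold in full. RNA polymerase I transcripts do not receive the cap that the mRNA pathway adds. A TATATAG-like element spans the polymerase I start site of plant rRNA genes.

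The TAIR10.1 reference holds a copy on each of the 2 chromosomes, both on the plus strand. On chromosome 3 the annotated 18S gene AT3G41768 lies at 14197677 to 14199484 and the 5.8S gene AT3G41979 at 14199753 to 14199916. On chromosome 2 the 18S gene AT2G01010 lies at 3706 to 5513 and the 5.8S gene AT2G01020 at 5782 to 5945. The annotation used here gives no 25S gene; stretches that match the large-subunit rRNA of the chloroplast or mitochondrion lie between 14200158 and 14203077 on chromosome 3. The copies aligned over 8938 columns with 99.1% identity, 54 substitutions and 28 gap columns. A tag matches one copy alone only where its sequence reaches a differing base; the sources used here do not give how tags that match both were placed.

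The stretches on which the results turn are given first, taken from the TAIR10.1 reference and read in the direction of the RNA, with capitals for the peak base and for every base that differs between the copies. The first pair holds the start of the precursor, where all 4 sets peaked on the last A of TATATAG on both copies; the first differing base comes 49 bp further on.
Precursor start on chromosome 3 (plus strand), chr3:14195798-14195897: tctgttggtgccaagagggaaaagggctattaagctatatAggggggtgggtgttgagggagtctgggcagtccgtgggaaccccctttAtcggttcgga
Precursor start on chromosome 2 (plus strand), chr2:1831-1930: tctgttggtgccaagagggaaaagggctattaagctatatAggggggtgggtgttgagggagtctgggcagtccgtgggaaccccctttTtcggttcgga

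The next pair lies 201 bp before the 18S gene and carries the widest shift of tags between the copies. The differing base is A3543T (the base on chromosome 2, its position counted from the start of chromosome 2, and the base on chromosome 3), 38 bp past the peak.
Spacer site at -201 on chromosome 3 (plus strand), chr3:14197466-14197555: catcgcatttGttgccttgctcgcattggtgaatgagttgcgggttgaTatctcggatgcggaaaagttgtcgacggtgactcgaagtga
Spacer site at -201 on chromosome 2 (plus strand), chr2:3495-3584: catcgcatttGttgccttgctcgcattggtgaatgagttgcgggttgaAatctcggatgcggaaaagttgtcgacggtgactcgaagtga

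The ITS2 site below was the spacer site at which Shigu-2 stood furthest above the other sets in its level summed over the copies. Its differing bases are G6105A and A6110T, written in the same way. The first capital T is the Shigu-2 peak base on chromosome 3 and, on chromosome 2, only the base aligned with it: the chromosome 2 cluster peaked at 6035 in all 4 sets, before the stretch shown.
ITS2 site on chromosome 3 (plus strand), chr3:14200032-14200101: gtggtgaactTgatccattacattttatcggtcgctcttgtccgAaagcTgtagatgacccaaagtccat
ITS2 site on chromosome 2 (plus strand), chr2:6061-6130: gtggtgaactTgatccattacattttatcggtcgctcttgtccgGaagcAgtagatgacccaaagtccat

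The following pair ends ITS2. Its peak base opens the run gcgacccc with which, from general knowledge of plant rRNA and not from the annotation, mature 25S rRNA begins; the 2 differing bases lie before the peak, and none follows for 955 bp.
25S start on chromosome 3 (plus strand), chr3:14200065-14200144: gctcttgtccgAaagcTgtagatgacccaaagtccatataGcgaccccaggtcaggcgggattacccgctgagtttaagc
25S start on chromosome 2 (plus strand), chr2:6094-6173: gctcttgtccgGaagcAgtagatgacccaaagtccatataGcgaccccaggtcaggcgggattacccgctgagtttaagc

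Last are the 6 positions in the 25S region at which every set had a cluster of over 1000000 tags. They were singled out after their values were seen.
25S region peak at 14201023 (plus strand), chr3:14201003-14201082: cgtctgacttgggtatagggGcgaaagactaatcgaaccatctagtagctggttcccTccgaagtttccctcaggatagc
25S region peak at 14201492 (plus strand), chr3:14201472-14201551: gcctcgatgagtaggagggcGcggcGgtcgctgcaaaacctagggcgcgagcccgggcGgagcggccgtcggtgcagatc
25S region peak at 14201601 (plus strand), chr3:14201581-14201660: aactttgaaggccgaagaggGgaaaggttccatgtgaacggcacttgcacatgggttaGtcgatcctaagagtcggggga
25S region peak at 14202131 (plus strand), chr3:14202111-14202190: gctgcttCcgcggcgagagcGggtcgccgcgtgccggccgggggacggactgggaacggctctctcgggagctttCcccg
25S region peak at 14202326 (plus strand), chr3:14202306-14202385: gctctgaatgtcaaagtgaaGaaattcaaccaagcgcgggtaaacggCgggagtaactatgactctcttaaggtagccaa
25S region peak at 14202757 (plus strand), chr3:14202737-14202816: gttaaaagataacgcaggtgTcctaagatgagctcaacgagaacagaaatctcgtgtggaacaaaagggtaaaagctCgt

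The rRNA repeats took 54.6% of all tags for Altenb-2, 44.3% for Kly-1, 40.8% for Shigu-2 and 53.1% for Vash-1. Nearly all of these tags were placed on the strand of the rRNA on the chromosome 3 reference copy, downstream of 5.8S. Over the 4 sets, 162 clusters on the plus strand of chromosome 3 held 99.66% of the tags, and 43 on its minus strand held 0.247%. The plus strand of chromosome 2 had more clusters, 176, but only 0.0957% of the tags, and its minus strand had 24 clusters with 0.00157%. On the plus strand of the chromosome 3 copy the segment upstream of 18S held 10873 tags and ITS1 held 13118, against 103311981 downstream of 5.8S. The split was the same in kind in each set: the plus strand of chromosome 3 held 99.60% for Altenb-2, 99.66% for Kly-1, 99.66% for Shigu-2 and 99.70% for Vash-1.

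No cluster of any set had its peak in the 18S or the 5.8S gene of either copy, nor within 50 bp of their ends. The 18S gene left a gap from 164 bp before its start to 39 bp past its end on chromosome 3. The 5.8S gene has no position whose next 75 bases occur once in the reference, and the 18S gene has 150 such positions out of 1808 around its substitutions T4194C and T5032C.

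**Figure D1:**
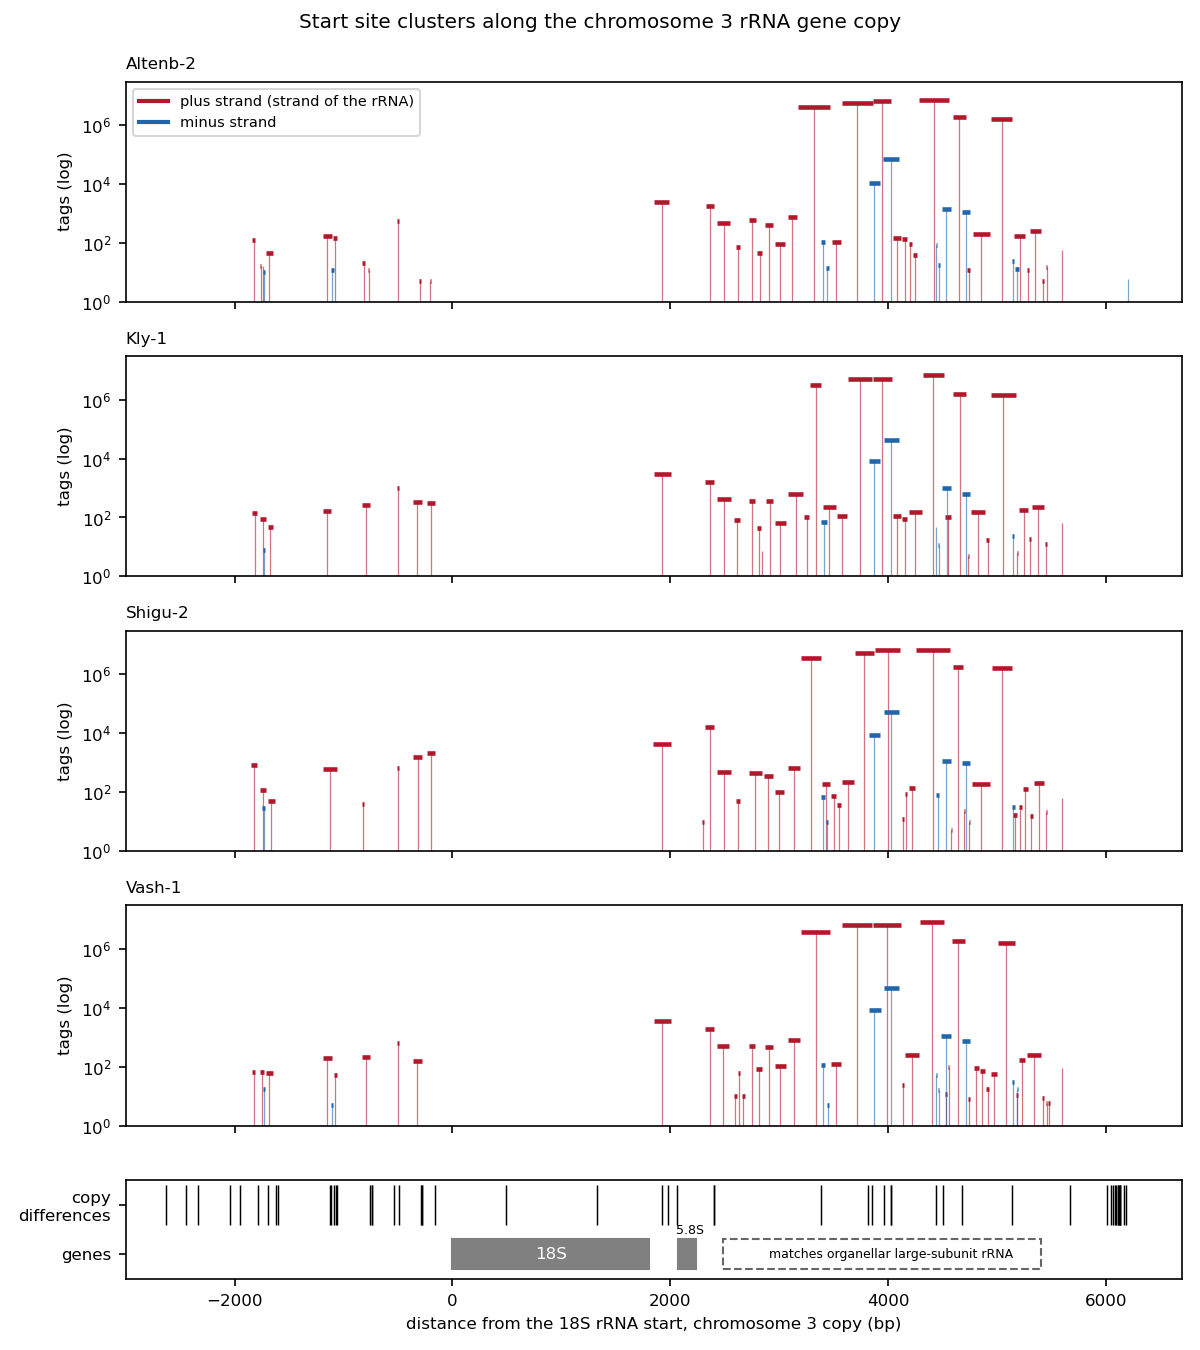
Clusters of each set along the chromosome 3 copy, by distance from the 18S start in bp; bars span each cluster at the height of its tags on a log axis, red for the strand of the rRNA and blue for the opposite strand, and the lowest panel marks genes and bases that differ between the copies. The dashed box runs from the first to the last stretch that matches organellar large-subunit rRNA and includes unmatched sequence between them. In all 4 sets 6 clusters stand above 1000000 tags within this span, and 18S and 5.8S are empty.

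Of the 405 clusters, 24 had over 1000000 tags, and they were the same 6 peak positions in each of the 4 sets. Together they held 99.5988% of the rRNA tags, and the next largest cluster had 67866. The peaks lay on the plus strand of chromosome 3 between 14201023 and 14202757. They fell between the outermost stretches that match organellar large-subunit rRNA, though no peak lay inside a matching stretch itself. Each had a base that differs between the copies 5 to 57 bp downstream.

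The leading position, 14202131, had 7060950 tags for Altenb-2, 6974663 for Kly-1, 6859792 for Shigu-2 and 7942548 for Vash-1. These were 26.1, 30.0, 26.8 and 28.6% of the rRNA tags of each set, so that the highest set exceeded the lowest 1.15-fold. The peak at 14201601 held 6563757, 4890833, 6467609 and 6280276 tags in the same order of sets, a 1.20-fold range of shares, the widest of the 6.

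The neighbouring peak at 14201492 held 5794442, 5041361, 5242569 and 6243754 tags in the same order. At 14201023 the counts were 4052989, 3196009, 3593429 and 3753368. The other peaks were smaller, with 1592648 to 1836849 tags at 14202326 and 1483558 to 1620631 at 14202757. The share of a set's rRNA tags taken by a position ranged 1.06-fold to 1.20-fold between sets, and the order of the positions by tags was 14202131, then 14201601 and 14201492, then 14201023, 14202326 and 14202757 in all sets but Kly-1, where 14201492 stood above 14201601.

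These clusters were broad, 90 to 313 bp wide, with a fraction of 0.0726 to 0.303 of their tags on the peak base. The clusters that covered the same positions on chromosome 2 had far fewer tags, 41691 over the 4 sets at 8160, the counterpart of 14202131, and 1674 at 8786, the counterpart of 14202757. The chromosome 3 cluster exceeded the chromosome 2 one 692-fold to 4365-fold; 14201492 and 14201601 share 1 cluster per set on chromosome 2.

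Tags on chromosome 3 lay almost entirely in clusters whose peak is followed by bases that tell the copies apart. Each tag was counted by the peak of its cluster, not by its own first base. On the plus strand of chromosome 3, 99.9861% of tags belonged to clusters whose peak is followed by 75 bases that occur once in the reference, as were 43.8% of clusters, against 16.8% of all positions. On chromosome 2 these figures were 80.5% of tags, 34.1% of clusters and 33.1% of positions. All 67 minus-strand clusters met the condition. With 25 bases the share of chromosome 3 plus-strand tags was 21.6%, with 50 bases it was 66.0%, and with 100 bases it was 99.9861%; the sources used here do not give the read length.

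**Figure D2:**
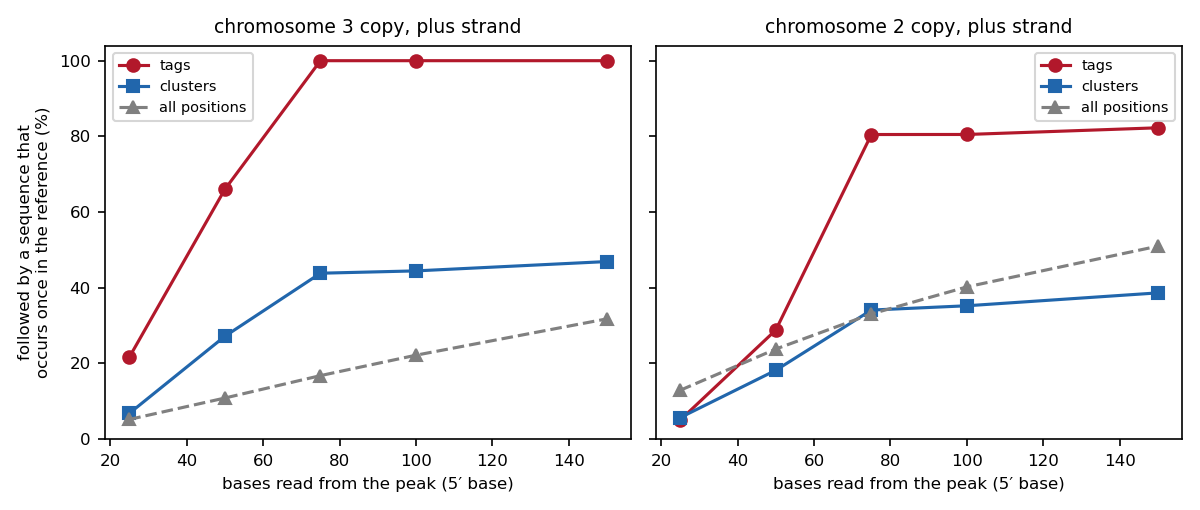
Percent of clusters on the plus strand of each copy whose peak is followed by bases that occur once in the reference, by the number of bases. Tags are those of such clusters, each counted by its cluster's peak, and positions are all those with such following bases. On the chromosome 3 copy the tags reach 99.9861% at 75 bases, where 16.8% of positions do.

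The downstream edges of some clusters met the same bases, a comparison chosen after their values were seen. The plus strand of chromosome 3 had 162 aligned clusters. Of these, 26 (16.0%) ended 0 to 5 bp before a substitution, against 3.30% of all aligned positions. The 26 were all among the 71 clusters with such a unique stretch, of which they made 36.6%. The choice of a unique stretch favours peaks shortly before a differing base, so 3.30% is not a like background for the 71. On the minus strand of chromosome 3, where every cluster had a unique stretch, 24 of 43 (55.8%) ended there. On chromosome 2 the counts were 17 of 175 on the plus strand, all among the 59 with a unique stretch, and 5 of 15 on the minus strand. None of the 91 and 116 plus-strand clusters without a unique stretch, on chromosomes 3 and 2, ended there. That count was largely fixed by the choice, since a peak shortly before a differing base usually has a unique stretch.

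Not every differing base had tags before it. Between the precursor start and 18S, 17 of 18 substitutions had a plus-strand cluster peaking within the 75 bases that end on them, on either copy, and T3169C was the exception. All 3 in ITS1 had one, as did 11 of 12 from 5.8S to the end of the last cluster of over 1000000 tags. Upstream of the precursor start 1 of 5 did, with 1 cluster of 6 tags. Neither of the 2 in 18S did, and downstream of the last such cluster 1 of 14 did, T9376C, with 272 tags on chromosome 3 over the 4 sets. The share of all positions with a cluster peaking that close before them was not computed. These counts therefore do not show that differing bases stand out from other positions.

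The precursor start gave sharp clusters on both copies. On chromosome 3 its peak lay at 14195838, which is 1839 bp before 18S, and its cluster had 125 tags for Altenb-2, 142 for Kly-1, 858 for Shigu-2 and 64 for Vash-1. On chromosome 2 the peak lay at 1871, and the cluster had 633, 1000, 521 and 869 tags in the same order. The copies thus differed in opposite directions: Shigu-2 was the highest set on chromosome 3 and the lowest on chromosome 2.

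In all 8 clusters the last A of TATATAG was the peak, with a fraction of 0.809 to 0.875 of the cluster's tags on that base. The motif, searched on both strands, occurred 8 times in the repeats, and only these 2 occurrences had a peak on the last A. Each plus-strand occurrence overlaps a minus-strand one, so the 8 are not separate places. Clusters peaking there were 8 of 405 (1.98%) in the rRNA repeats and 64 of 316778 (0.0202%) in the rest of the series, and 0.0167% of all positions of the 5 chromosomes carry the motif. The 8 clusters are the same site of the repeat, listed once per set on each of the 2 copies, and are not independent. A further plus-strand occurrence with its last A at 14194250, which is 1588 bp upstream on chromosome 3, had no cluster, and its next 75 bases occur 2 times in the reference. The remaining plus-strand occurrence, with its last A at 14204659, had no cluster either.

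Summed over the copies, the precursor start had 758 tags for Altenb-2, 1142 for Kly-1, 1379 for Shigu-2 and 933 for Vash-1. Per 1000000 rRNA tags these were 28.1 (26.1 to 30.1), 49.1 (46.3 to 52.0), 53.8 (51.0 to 56.7) and 33.6 (31.5 to 35.8), a 1.92-fold range. Per 1000000 tags outside the repeats they were 33.7, 39.0, 37.0 and 38.0, a 1.15-fold range. On the first scale Kly-1 and Shigu-2 stood above Altenb-2 and Vash-1, and on the second the 4 sets lay close together.

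The 25S start showed the reverse. Its peak lay at 14200105 on chromosome 3, 189 bp past the 5.8S end, and at 6134 on chromosome 2, in all 4 sets. The chromosome 3 cluster had 477 tags for Altenb-2, 430 for Kly-1, 474 for Shigu-2 and 505 for Vash-1, and the chromosome 2 cluster had 925, 735, 788 and 972. The peak base held a fraction of 0.610 to 0.675 of the tags in these 8 clusters.

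Per 1000000 rRNA tags, the summed 25S start had 51.9 for Altenb-2, 50.1 for Kly-1, 49.2 for Shigu-2 and 53.2 for Vash-1, a 1.08-fold range within which the intervals of all 4 sets overlapped. Per 1000000 tags outside the repeats it had 62.4, 39.7, 33.9 and 60.2, a 1.84-fold range. The next 75 bases after this peak occur 2 times in the reference, and 34.0 to 37.6% of the tags were placed on chromosome 3. That split was alike in the 4 sets, unlike the split at the precursor start.

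**Figure D3:**
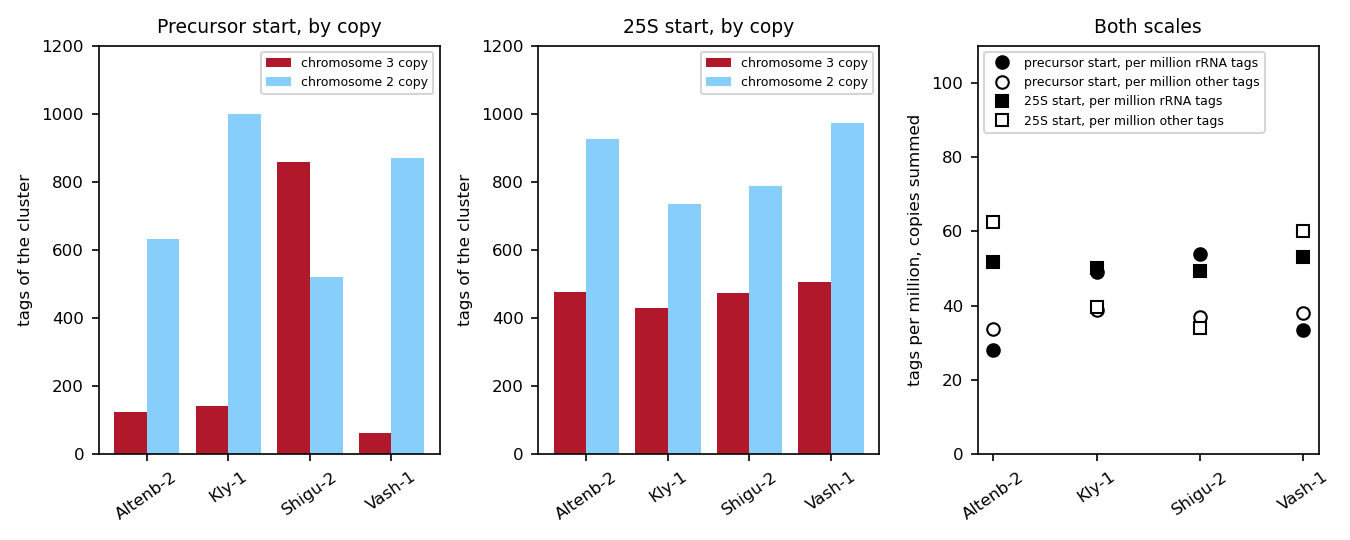
Tags at the precursor start and at the 25S start in each set, by copy (bars, red for chromosome 3 and blue for chromosome 2), and summed over the copies per 1000000 rRNA tags (filled) or per 1000000 other tags (open; circles, precursor start; squares, 25S start). Precursor start values range 1.92-fold on the first scale and 1.15-fold on the second, and 25S start values range 1.08-fold and 1.84-fold.

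Upstream of 18S the copy that received the tags differed between sets. Chromosome 3 received 27.1% of these tags (25.8 to 28.5) for Altenb-2, 33.5% (32.4 to 34.7) for Kly-1, 81.6% (80.7 to 82.5) for Shigu-2 and 28.8% (27.5 to 30.0) for Vash-1. In ITS1 the shares were 76.1, 84.0, 95.8 and 98.5% in the same order, and downstream of 5.8S they were 99.91 to 99.92% in every set. Shigu-2 thus stood apart in the tags summed upstream of 18S, and downstream of 5.8S the sets did not. This did not hold at every upstream locus. At 1084 bp before 18S the chromosome 3 share was 100, 85.6, 100 and 100% in the same order, and at 772 bp it was 95.7 to 100%. At 1738 and 501 bp before 18S chromosome 3 alone had listed clusters.

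At the site 201 bp before 18S, chromosome 3 had 5 tags for Altenb-2, 314 for Kly-1, 2095 for Shigu-2 and none listed for Vash-1 (clusters of under 5 tags are not in the table), and chromosome 2 had 1326, 1957, 14 and 1475. Shares on chromosome 3 were 0.376, 13.8, 99.3 and 0%, where the 0 means only that no cluster of 5 tags or more was listed. Summed over the copies the site had 49.3, 97.6, 82.3 and 53.1 tags per 1000000 rRNA tags, a 1.98-fold range. The set with nearly all its tags on chromosome 3 was Shigu-2, while its sum lay between those of the others. In Kly-1 and Shigu-2 the chromosome 3 cluster ended at 14197513, 1 bp before the differing base.

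The site 329 bp before 18S, next to T3417C, T3428C and T3429A, had 5 tags on chromosome 3 for Altenb-2, 328 for Kly-1, 1555 for Shigu-2 and 154 for Vash-1, against 1064, 1629, 806 and 1247 on chromosome 2. It is named by the chromosome 2 peak at 3377. On chromosome 3 the overlapping cluster peaked elsewhere, at 14197390 in Altenb-2 and at or near 14197318 in the other sets. At the precursor start the chromosome 3 share was 16.5, 12.4, 62.2 and 6.86%. At these 3 sites, but not at the other upstream plus-strand loci named above, Shigu-2 alone had the highest share on chromosome 3. At the ITS1 site, with chromosome 3 peaks at 14199602 or 14199609, chromosome 3 had 2506, 2876, 4216 and 3520 tags against 789, 548, 187 and 53 on chromosome 2 in the order of sets above. The chromosome 2 tags lay mainly in clusters peaking elsewhere, at 5695 in every set and at 5565 or 5573 in all sets but Vash-1. Only an Altenb-2 cluster of 5 tags at 5636 lay near the counterpart of the chromosome 3 peaks. Over this stretch Vash-1 had the highest share, above Shigu-2. These ITS1 shares do not compare the same start position on both copies.

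Of 35 loci aligned between the copies, 21 had clusters on both and 20 of these were listed in all 4 sets. The chromosome 3 share ranged over 25 percentage points or more between sets at 5 loci, and the 3 loci that hold the 25S region peaks were not among them, with ranges of 0.00843 to 0.0132 points. Of the 5, the locus 2697 bp past the 18S start had only 16, 10, 6 and 17 tags over the copies, near the floor of 5 tags. A minus-strand locus 1741 bp before 18S had 10, 8, 29 and 17 tags on chromosome 3. A locus 501 bp before 18S appeared on chromosome 3 alone, with 555 tags for Altenb-2, 987 for Kly-1, 639 for Shigu-2 and 632 for Vash-1. It was 13 bp wide in every set, and its end lay 1 bp before G3214T.

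**Figure D4:**
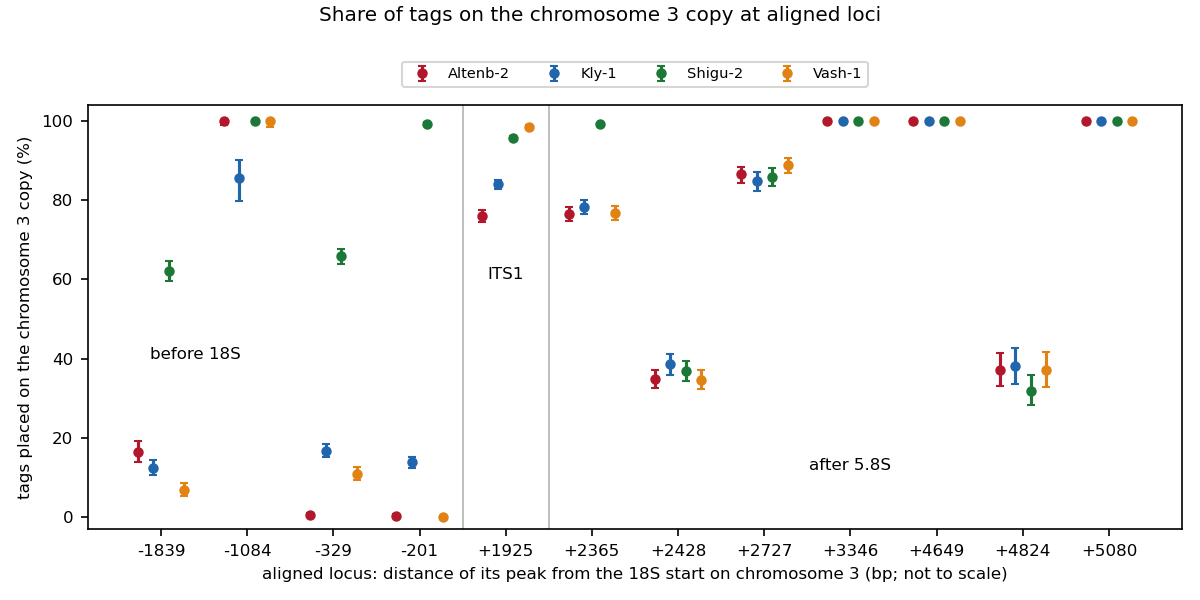
Percent of tags placed on the chromosome 3 copy at the aligned plus-strand loci with clusters on both copies and at least 1000 tags in all, named by the distance of the peak from the 18S start in bp, with exact 95% binomial intervals; colours are the 4 sets. At -201 Shigu-2 lies at 99.3% and the other sets at 0 to 13.8%, and all sets meet at the loci of over 1000000 tags. Where 1 copy has no listed cluster the point lies at 0 or 100%, since tags in clusters of under 5 are not in the table.

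In ITS2, Shigu-2 differed in the amount as well as the copy. The chromosome 3 cluster had 1724 tags for Altenb-2, 1601 for Kly-1, 15678 for Shigu-2 and 1838 for Vash-1, and its peak lay at 14200042 for Shigu-2 but at 14200079 in the other sets, with a fraction of 0.140 of tags on the peak base against 0.345 to 0.379. In all 4 sets the cluster ended at 14200080, 1 bp before a differing base. Aligned chromosome 2 clusters had 526, 444, 108 and 557 tags. Summed over both copies the site had 83.3, 87.9, 616 and 86.2 tags per 1000000 rRNA tags, so that Shigu-2 exceeded the lowest set 7.39-fold while the remaining sets lay between 83.3 and 87.9. Shigu-2 was also the highest set at the locus 1084 bp before 18S, where the sums were 12.1, 8.34, 23.8 and 9.15, a 2.85-fold range.

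A locus 772 bp before 18S was the only other one whose summed level ranged 4-fold or more. It had 32 tags on chromosome 3 for Altenb-2, 265 for Kly-1, 38 for Shigu-2 and 215 for Vash-1, and 12 on chromosome 2 for Kly-1 with none listed in the other sets. Per 1000000 rRNA tags the sums were 1.18, 11.9, 1.48 and 7.74, a 10.0-fold range. Kly-1 and Vash-1 were high here and Altenb-2 and Shigu-2 low, a grouping that neither the start nor the ITS2 site showed.

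Clusters sharing at least 1 bp of a strand were merged across sets, each copy on its own, which left 77 loci. Joining merged the peaks at 14201023, 14201492 and 14201601 into a single locus with 60.8, 56.4, 59.7 and 58.6% of the rRNA tags in the order of sets above. Of the 77 loci, 54 (70.1%) were listed in all 4 sets, against 29.9% of 114903 loci in the rest of the series, and 32 of the 54 (59.3%) had the same peak base in all 4, against 48.2%. The rRNA clusters had a median of 103 tags and those of the rest 13. A locus was called when its share of the rRNA tags (for the rest of the series, of the tags outside the repeats) was at least 4-fold higher in its highest set than in its lowest.

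This held for 8 of 54 loci (14.8%), where 10.3% of all 34444 loci of the series listed in all 4 sets were called. Among loci of 100 tags or more in the highest set it held for 8 of 41, against 8.69% of such loci in the series and 8.67% of those outside the repeats. With the 2 copies summed it held for 2 of 27 (7.41%), against 10.3% outside the repeats. Without Shigu-2 it held for 4 of 54 (7.41%), near the 6.77% outside the repeats in the same setting. The median fold was 1.54 in the rRNA loci and 1.88 in the rest of the series. The 5 widest folds were 328 and 154 at the 2 spacer sites described above (14197318 on chromosome 3 and 3505 on chromosome 2), 22.0 at the ITS1 locus 5695 on chromosome 2, 14.5 at the chromosome 3 precursor start and 9.61 at the locus 772 bp before 18S. The ITS1 locus had 766 tags for Altenb-2, 285 for Kly-1, 33 for Shigu-2 and 53 for Vash-1.

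The minus strand, opposite to the rRNA, had 257329 tags in all. The locus at 14201646 had 67866 tags for Altenb-2, 43414 for Kly-1, 53052 for Shigu-2 and 46869 for Vash-1, which, with its few chromosome 2 tags, was 80.9 to 83.4% of the minus-strand tags at aligned loci. It lay opposite the cluster that peaked at 14201601, and its peak base was the same in all 4 sets.
Leading minus-strand peak on chromosome 3 (minus strand), chr3:14201607-14201666: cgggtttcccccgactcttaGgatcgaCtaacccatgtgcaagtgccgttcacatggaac

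Next was the locus at 14201573, with 10402, 7962, 8460 and 8663 tags in the same order, its peak lying at 14201588 in Kly-1 and Shigu-2. The loci at 14202235 and 14202390 had 999 to 1386 and 626 to 1113 tags. Each of the 11 aligned minus-strand loci had a differing base 2 to 49 bp past its peak. Upstream of 18S the minus strand was led by a chromosome 2 locus at 1969, 1737 bp before 18S, with 132, 41, 59 and 71 tags, the highest in Altenb-2. On chromosome 3 the locus at 14195947 had 10, 8, 29 and 17 tags, its peak lying at 14195936 in Vash-1. A chromosome 2 locus at 10012 was also highest in Altenb-2, with 191, 85, 26 and 32 tags.

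The bases at the peaks were unlike those of gene starts. Most start sites of protein-coding genes lie on a pyrimidine followed by a purine, the initiator step. This step was found at 38.5% (33.8 to 43.5) of the 405 peaks, against 70.8% of peaks in the rest of the series, 87.0% of those at gene starts and 46.1% of those inside genes past the start codon. A GG step was found at 26.4% (22.2 to 31.0), against 8.63% in the rest of the series, 1.04% at gene starts and 22.6% inside genes. The peak base was G in 72.1%, against 52.5, 44.0 and 66.2%.

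All positions of the repeats on both strands have 22.3% pyrimidine-purine steps, 7.04% GG steps and 25.9% G. In these measures the rRNA clusters thus lay nearer to clusters inside genes than to those at gene starts. On the minus strand 2.99% of 67 peaks were GG and 47.8% were pyrimidine-purine, against 31.1 and 36.7% of 338 on the plus strand. The clusters were also broader, with a median width of 48 bp against 16 bp in the rest of the series, and flatter, with a median of 0.277 of tags on the peak base against 0.462. Tags per cluster differed as well, and among clusters of 100 tags or more the medians were 91 and 64 bp wide and 0.194 and 0.382 of tags on the peak base. Clusters of 1 locus in 4 sets, and neighbouring clusters before the same differing base, share their sequence and are not independent.

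**Figure D5:**
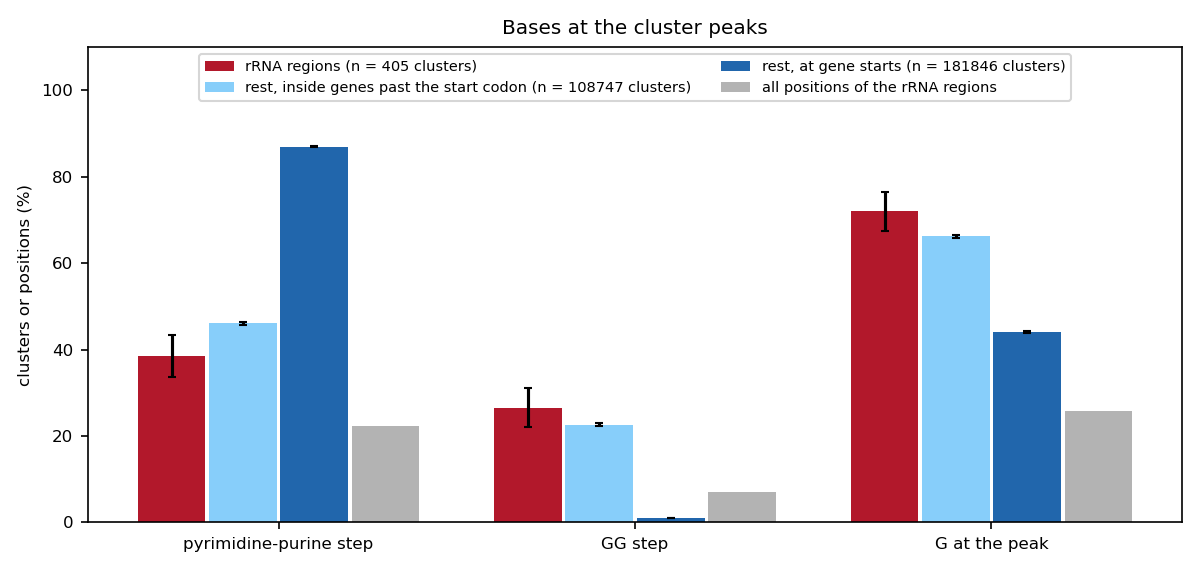
Percent of cluster peaks on a pyrimidine-purine step, on a GG step or on G in the rRNA repeats, inside genes past the start codon and at gene starts elsewhere, with exact 95% binomial intervals, and the same for all positions of the repeats. Pyrimidine-purine steps are at 38.5% of rRNA peaks and 87.0% of gene starts, and GG steps at 26.4% and 1.04%.

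Of 12 genes that act in making rRNA, 10 reached 5 CPM (tags per 1000000 tags outside the repeats, summed over clusters from 500 bp upstream of the annotated start to the start codon) in at least 1 set and were listed in all. Of these, 1 ranged over at least 2-fold across the sets, against 24.4% of 13636 genes. It was XRN3, a nuclear exonuclease that trims RNA from its 5′ end, with 70.9 CPM for Altenb-2, 75.7 for Kly-1, 92.0 for Shigu-2 and 38.2 for Vash-1, a 2.41-fold range. The median fold was 1.42 in the 10 genes and 1.55 over all genes.

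NRPA1 and NRPA2, which form the catalytic core of RNA polymerase I, had 68.9 to 95.9 and 55.1 to 65.4 CPM. FIB1, a fibrillarin, which methylates rRNA, had 167, 238, 257 and 182 CPM, and its paralogue FIB2 had 23.1 to 36.8. NUC-L1, the main nucleolin, had 92.4, 130, 139 and 117 CPM, and NUC-L2 stayed at 0.401 to 0.978. The helicase MTR4 of the nuclear exosome had 25.8 to 37.2 CPM, XRN2 21.8 to 28.0, and RTL2, a ribonuclease III that cuts the precursor, 15.3 to 18.6. HDA6, a histone deacetylase that silences part of the rRNA genes, had 32.8 to 42.3 CPM, and RRP44A, an exosome nuclease, had no cluster listed in that window.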

How the data were processed

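Per the submitters' processing notes STAR 2.7.9a was the aligner of the CAGE libraries. The sources used here do not give the build, the read length, how tags with several matches were handled or how clusters were formed. The column headers name a count per cluster, a count per peak and a peak ratio. The counts are whole numbers, with 5 as the smallest count of a cluster, and were taken here as tags that were not normalized. The deposited peak ratio is the fraction of a cluster's count that lies on its peak base. Counts summed to 49475691 for Altenb-2, 52579946 for Kly-1, 62868630 for Shigu-2 and 52308389 for Vash-1, all pooled by accession, so no replicate spread and no test over samples exist and the planned groups could not be compared. Accession genomes were not used here.

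The rRNA clusters and the lists were chosen with earlier results of these data known. Peaks were set against the TAIR10.1 reference and its annotation. Sequences were read from the TAIR10.1 reference by a script. The copies were aligned with blastn 2.17.0, which also found the stretches matching organellar large-subunit rRNA. Following sequences were counted over the whole reference on both strands, with 75 bases as the main length. Loci join clusters overlapping by 1 bp on a strand; loci on the 2 copies were paired through the alignment. Shares were taken over each set's rRNA tags, a locus was called at 4-fold and a gene at 2-fold, and intervals are 95% Clopper-Pearson (scipy 1.17.1, Python 3.11.15). Tags carry no molecular identifiers in the labels and may include PCR copies. Locus joining and calling were tested on simulated counts. Named loci were the 10 on chromosome 3 with the highest mean share, the top locus of each segment and strand on each chromosome, the 5 widest folds among loci of 100 tags or more, and any within 50 bp of a gene end; the precursor start, the 25S start, the 6 largest peaks, the edge counts and the aligned sites were chosen after their values were seen. Alternatives are named in the closing section.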

Additional observations from a re-analysis of the deposited data

How the results depend on the processing

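Each set has 1 pooled value, so depth limits only counting error; differences between sets cannot be assigned to accession, treatment or library, and the split between the copies depends on a read length and multiple-match rule that the sources used here do not give. No paired analysis was possible because the clusters carry no replicate number. Of 94 recomputed values, 38 stayed within the 95% interval of the value reported (for counts, medians and folds, within 1.5 times) and the other 56 follow, in the order of sets used above where 4 are given. The cause of these shifts was not tested beyond what each construction removes.

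The share of tags in the repeats was 0.0252, 0.0271, 0.0458 and 0.0265% with 1-kb flanks, which leave out the largest clusters, and 0.00666, 0.00651, 0.00700 and 0.00683% with none. Without the locus with most tags it was 21.4, 19.3, 16.4 and 22.0%, and with chromosome 3 alone 54.5, 44.2, 40.7 and 53.0%.

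The chromosome 3 plus-strand share downstream of 5.8S was 99.6349% with clusters of at least 50 tags, 99.6351% at 1 tag per 1000000, 99.2409% by peak tags and 99.1061% without the locus with most tags. The minus-strand share was 0.561% and 0.605% under the last 2. The chromosome 2 share was 0.0959, 0.0958, 0.176 and 0.237% under these 4, and 251 and 246 clusters were left under the first 2.

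With peaks chained within 10 bp the loci numbered 172, those in 1 set 68, the top locus held 27.8%, the top 5 93.5% and the top 10 99.8769%, and 5 held 90%. With clusters of at least 10 tags, 10 loci were in 1 set. At 2-fold 19 loci were called, 35.2% against 44.6% in the rest of the series. Without Shigu-2 4 were called (7.41% against 6.77%), and with the copies summed 2 (7.41% against 10.3%).

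Upstream of 18S the chromosome 3 share by peak tags was 30.2, 30.1, 73.9 and 23.4%, and in Altenb-2 25.006% with clusters of at least 50 tags. Peaks followed by a unique sequence were 12.1% of clusters and 21.7% of tags at 25 bases and 31.4% and 66.0% at 50 bases, and 99.9695% of tags at 150. These lengths, the summed copies and the scale of the start sites were chosen after seeing the data. Weighted by tags, pyrimidine-purine steps were 49.4%, GG steps 37.5%, the median width 219 bp and the median peak fraction 0.117; with loci counted once GG steps were 22.1%. With CPM over all tags 2 rRNA-processing genes were called. Per 1000000 tags outside the repeats, the range between sets was 1.15-fold at the precursor start and 1.84-fold at the 25S start.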
